A study of Mus musculus with 18 samples.

Results

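Single oocytes of early antral follicles from Sall4 knockout mice were compared with wild-type oocytes of the same stage, CpG by CpG, to find which positions carried less methylation and which methylated positions kept their level. The comparison held 2 knockout and 4 wild-type oocytes of the 18 oocytes in the series, and the remaining 12 came from secondary follicles. Knockout oocytes came from Sall4fl/fl;Zp3-Cre females and the oocytes called wild type from Sall4fl/fl females, so the floxed alleles were present in every oocyte and the controls differed in lacking the Cre. Zp3-Cre is expressed in oocytes once they begin to grow, so deletion is limited to the germ cell and starts only then. Collection at P12.5 and P17.5 is stated for the series as a whole, so the age of a given oocyte is not known. Autosomal CpGs with at least 5 reads were used, and a CpG was compared where at least 2 oocytes of each genotype had read it. This left 13269 shared CpGs out of 324247 read in any early antral oocyte, and 8056 of them were read in all 6.

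Methylation of oocyte DNA is laid down anew during follicle growth, mainly by DNMT3A with its partner DNMT3L, over transcribed regions above all, while most CpG-dense promoters stay free of it. SALL4 is a zinc finger transcription factor of early embryos and germ cells. Reduced representation bisulfite sequencing cuts DNA at MspI sites and reads the fragment ends, so CpG-rich sequence and repeats that carry the site are sampled most deeply. The label "oocyte" cannot be checked against marker genes, because the files hold DNA methylation only. Genes and sequences at these positions were not analysed here.

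Each library was 1 cell and no animal is named, so a genotype counts as 1 sample, no test was possible, and every SD and range below describes oocytes. Read counts summed over CpGs lay between 982829 and 1903629 in the wild-type oocytes and were 942232 and 4161741 in the knockout oocytes. The second knockout oocyte was thus the most deeply read of the 6, and wild-type oocyte 4 the least methylated of the wild types. Levels over the 8056 CpGs read in all 6 were 32.3%, 32.9%, 31.7% and 26.7% in wild-type oocytes 1 to 4, while knockout oocytes 1 and 2 stood at 21.5% and 23.9%. Every wild-type oocyte was above both knockout oocytes, and the group means differed by -8.23 points. Over all 13269 shared CpGs the wild-type mean was 28.7% and the knockout mean 20.6%, a difference of -8.10 points. Both knockout oocytes were below every wild-type oocyte read at 2510 CpGs, 18.9% of those compared, and above every one at 373, or 2.81%.

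Most of the shared CpGs lay in repeated sequence, as far as their spacing shows. The spacing pattern of a CpG was taken as the distances to all CpGs seen in any library within 60 bp, where the window held at least 4. A pattern found at 10 or more places was called recurrent. Recurrent patterns made up 8.15% of the 1160411 autosomal CpGs seen in any library, but 9381 of the 13269 shared CpGs, or 70.7%. A pattern found at 1 place only made up 49.8% of the former and 9.71% of the latter. Reads of near-identical copies cannot be placed with certainty, and the level at such a CpG can be a mean over copies. Chromosomes 10 to 14, the group that follows chromosome 1 in the files' alphabetical order, held 67.3% of the shared CpGs against 26.7% of the CpGs with a read, and the part of read placement in this was not tested. The genotype difference was -8.20 points on these chromosomes and -7.88 points on the other autosomes.

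The 3 tandem families described next were found by their CpG spacing after the values had been seen, and they held most of the shared CpGs. Family A has 4 successive CpGs with gaps of 7, 3 and 37 bp, family B gaps of 2, 2 and 52 bp, and family C gaps of 4, 9 and 15 bp. Where another copy of the motif followed within 1000 bp in the same direction, the step was most often 212 bp in family A (740 of 985 steps), 208 bp in family B (424 of 586 steps) and 206 bp in family C (125 of 209 steps). Promoters of mouse LINE-1 retrotransposons are known to be built of tandem monomers, but no sequence was read here and no family is assigned to an element. CpGs within 250 bp of such a motif were counted as members, and none belonged to more than one family.

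The deficit differed widely among these sets. Family A, with 4330 shared CpGs, had little methylation in either genotype, with a wild-type mean of 13.8% and a knockout mean of 11.9%. At its 2777 CpGs read in all 6 oocytes the wild-type levels were 15.9%, 12.4%, 14.9% and 13.2% and the knockout levels 9.34% and 13.5%. The genotypes overlapped there. Without knockout oocyte 1 the difference of -1.89 points turned to 0.605 points, with CpGs that knockout oocyte 1 had not read let in. Family B, with 3189 CpGs, had a wild-type mean of 41.1% and a knockout mean of 31.1%, and oocyte levels over 2655 CpGs were 39.5%, 48.0%, 42.8% and 33.0% against 31.9% and 29.9%. The groups did not overlap, but the lowest wild-type oocyte there was close to the higher knockout oocyte. Family C was the most methylated set, with 61.1% in wild type and 46.0% in knockout over 1135 CpGs. Over 842 of them the oocytes stood at 70.2%, 61.8%, 60.9% and 59.6% in wild type and at 46.5% and 49.0% in knockout, so that the groups did not overlap. Both knockout oocytes were below every wild-type oocyte at 436 of 4330 CpGs in family A, 638 of 3189 in family B and 412 of 1135 in family C, the last being 36.3%, against 18.9% over all shared CpGs. This share rose with the wild-type level: over all shared CpGs it was 5.89% at 20% or below in wild type, 29.0% between 20% and 80%, and 48.1% at 80% or above. Family C had only 8 CpGs at 20% or below, so its share is not particular to the family.

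**Figure D1:**
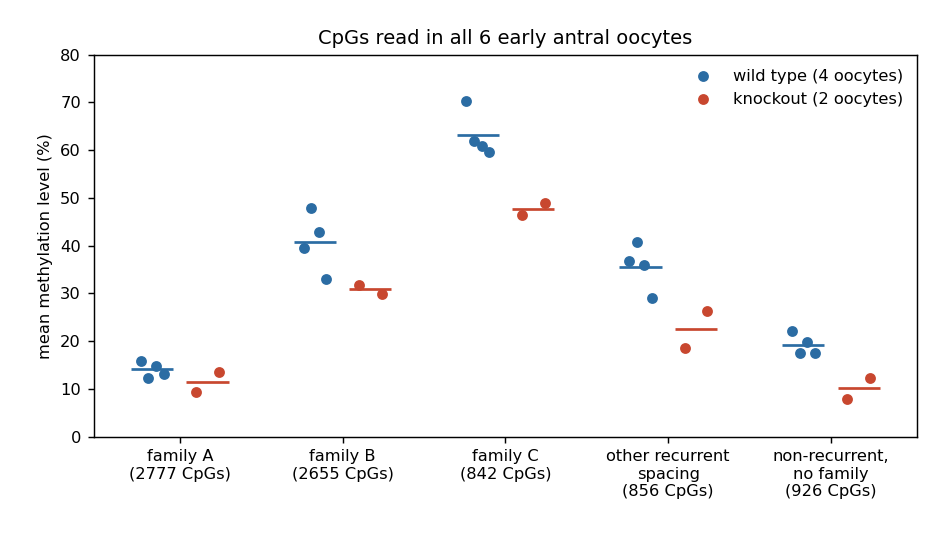
Mean methylation level (vertical axis, percent) of each early antral oocyte over CpGs read in all 6 oocytes, in the 3 tandem families, at other recurrent spacing and at the remaining CpGs (horizontal axis). Points are oocytes and lines are group means. Both knockout oocytes lie below all wild-type oocytes in every set but family A, where the knockout levels are 9.34% and 13.5%.

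CpGs outside the families had a deficit as well. At recurrent spacing outside the families, 1913 CpGs had a wild-type mean of 37.3% and a knockout mean of 24.0%, a difference of -13.3 points. The 2702 remaining CpGs, with spacing found at fewer places or with too few CpGs in the window, had a wild-type mean of 18.5% and a knockout mean of 9.30%. Their oocyte levels over 926 CpGs were 22.1%, 17.5%, 19.8% and 17.6% in wild type, and the knockout oocytes had 7.93% and 12.3%, with no overlap. The knockout mean was 0.50 times the wild-type mean there, 0.64 times at other recurrent spacing, 0.75 times in family C, 0.76 times in family B and 0.86 times in family A. Of the sum of all negative differences, family A held 15.7%, family B 26.8%, family C 13.1%, other recurrent spacing 22.1% and the remaining CpGs 22.3%.

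Over each oocyte's own CpGs, shared or not, both knockout oocytes were below every wild-type oocyte at spacing found once and at recurrent spacing. At spacing found once, wild-type oocytes stood between 9.34% and 10.3% and the knockout oocytes at 2.17% and 3.18%. At recurrent spacing the wild-type oocytes had 35.4% ± 2.53 (SD, n = 4), with the lowest at 31.7%, and the knockout oocytes 22.0% and 30.3%. These sets differ between oocytes, since each was read at other positions. At the 395 shared CpGs of spacing found once that all 6 oocytes had read, wild-type oocytes stood at 16.3%, 13.3%, 16.2% and 9.62%, against 9.22% and 15.1% in the knockout oocytes. The genotypes overlapped there, with a difference of -1.71 points.

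The size of the deficit followed the wild-type level. Among 6250 CpGs at 20% or below in wild type the means were 8.23% in wild type and 9.30% in knockout. The 2877 CpGs between 20% and 40% went from 29.0% in wild type to 18.3% in knockout, the 2578 between 40% and 60% from 49.4% to 33.6%, the 1003 between 60% and 80% from 68.2% to 45.0%, and the 561 at 80% or above from a level near 90% to 55.9%, a difference of -34.1 points. In these 4 bins the knockout mean was 0.62 to 0.68 times the wild-type mean. The bins were set on the wild-type values, so the gaps are a description of that choice as well. The 6458 CpGs between 20% and 80% carried 74.4% of the summed deficit, against 14.1% at the 561 methylated CpGs. Spacing separated the bins further: at 80% or above, CpGs of spacing found once had 97.1% in wild type and 27.8% in knockout (n = 56), and CpGs of recurrent spacing 87.9% and 64.0% (n = 411).

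**Figure D2:**
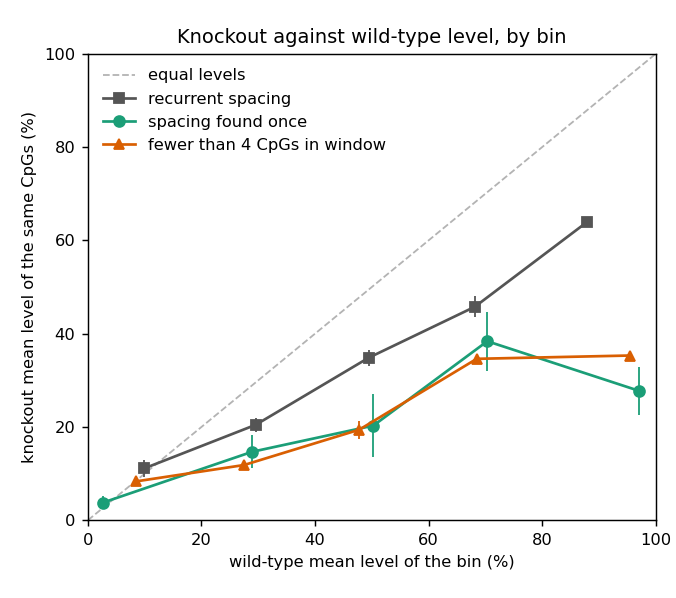
Knockout mean level (vertical axis, percent) against wild-type mean level (horizontal axis, percent) of the same shared CpGs, in 5 bins of the wild-type level, for recurrent spacing, spacing found once and windows with fewer than 4 CpGs. Vertical lines join the 2 knockout oocytes and the dashed line marks equal levels. At a wild-type level of 80% or above, recurrent CpGs stand at 64.0% in knockout and CpGs of spacing found once at 27.8%.

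Classes set without the oocyte being scored gave a comparison free of that selection. Of CpGs methylated at 80% or above in the other wild-type oocytes, the wild-type oocyte left out had 81.8%, 83.0%, 82.8% and 75.5%, and the knockout oocytes had 63.8% and 64.2%. All 4 wild-type oocytes stood above both knockout oocytes, and the means of 80.8% ± 3.56 (SD, n = 4 oocytes) and 64.0% ± 0.327 (SD, n = 2 oocytes) differed by -16.8 points. At 20% or below were 1.10% to 2.49% of these CpGs in a wild-type oocyte left out, and 9.92% and 5.86% in the knockout oocytes. At CpGs of recurrent spacing the levels were 80.5% ± 3.54 (SD, n = 4) and 67.1% ± 0.0112 (SD, n = 2). At spacing found once they were 85.1% ± 8.34 (SD, n = 4) and 52.7% ± 4.07 (SD, n = 2), from 10 to 16 CpGs per oocyte.

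Of the 561 CpGs with a wild-type mean of 80% or above, 92 were lost, meaning a knockout mean of 20% or below, and 119 were kept, with a knockout mean of 80% or above. The other 350 were partial. These are 16.4% lost and 21.2% kept among the methylated CpGs, or 0.693% and 0.897% of all shared CpGs. Few wild-type oocytes stood behind the lost CpGs: 75 of the 92 had been read in 2 wild-type oocytes and 5 in all 4, whereas 75 of the 119 kept CpGs had been read in all 4. Among methylated CpGs read in 2, 3 and 4 wild-type oocytes, 44.1%, 10.3% and 1.82% were lost. The share lost was 8.13% without wild-type oocyte 3, and it was 38.4% and 37.1% when knockout oocyte 1 or 2 was left out. A CpG then needed reads in the remaining knockout oocyte only, so the set of CpGs widened and that oocyte decided alone. Over the 561 CpGs themselves, 25.1% and 20.3% were at 20% or below in knockout oocytes 1 and 2. The share kept was 32.4% without knockout oocyte 2, again over a wider set. In the opposite direction, 185 CpGs had a knockout mean of 80% or above. Their wild-type mean was 79.4%, and 9 of them, 0.0678% of all shared CpGs, were gained, with a wild-type mean of 20% or below.

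The share lost was higher at spacing found once than at recurrent spacing. Of the 92 lost CpGs, 31 had spacing found once, 16 spacing found at 2 to 9 places, 25 recurrent spacing, and 20 lay in windows with too few CpGs to have a pattern. Of 56 methylated CpGs with spacing found once, 31 were lost and 5 kept, while of 411 with recurrent spacing 25 were lost and 105 kept. The difference in the share lost was 49.3 points, and 28.3 points without wild-type oocyte 3. Among the 127 methylated CpGs that were neither recurrent nor in a family, 67 were lost and 9 kept. Of 94 in family B, 5 were lost and 58 kept, and of 221 in family C, 3 were lost, 35 kept and 183 partial. A level at recurrent spacing can be a mean over copies, and the bounds of lost and kept are harder to reach for such a mean. Knockout oocytes 1 and 2 were at exactly 0% at 66.1% and 58.9% of the 56 CpGs found once. At the 411 recurrent CpGs these shares were 6.08% and 5.84%. How far this sets the shares lost and partial was not tested. Recurrent CpGs were also read in more oocytes: 243 of the 411 had been read in all 4 wild-type oocytes, against 10 of the 56 found once. Among those read in 2 wild-type oocytes only, 65.1% of 43 CpGs found once and 28.4% of 81 recurrent CpGs were lost. Among those read in all 4, 1 of the 10 CpGs found once and 0 of the 243 recurrent CpGs were lost. Neighbouring CpGs are not separate units, and these counts rest on fewer clusters, joined at gaps of up to 200 bp. The 56 CpGs found once lay in 20 clusters, 12 with a lost CpG, and the 411 recurrent CpGs in 121, 17 with a lost CpG. The 43 CpGs found once lay in 14 clusters, 9 with a lost CpG, and the 81 recurrent CpGs in 40, 15 with a lost CpG.

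Local CpG density, counted as CpGs seen in any library within 100 bp, separated lost CpGs as well, but not kept ones in the same order. With 1 to 4 CpGs, 16 of 33 methylated CpGs were lost, with 5 to 9 CpGs 54 of 148, and with 10 to 19 CpGs 22 of 380. The share lost was 48.5% in the first class and 5.79% in the third, a difference of 42.7 points, and of 23.2 points without wild-type oocyte 3. Kept were 3 of 33, 35 of 148 and 81 of 380, or 9.09%, 23.6% and 21.3%, so the second and the third class had similar shares kept. At 20 or more CpGs no shared CpG was methylated, and the means over 362 CpGs were 2.53% in wild type and 1.43% in knockout. Density and repeats went together, since 332 of the 380 methylated CpGs in the third class had recurrent spacing. Within spacing found once, 26 of 34 were lost at a density of 5 to 9 and 5 of 22 at 10 to 19. Within recurrent spacing, the counts were 14 of 78 and 11 of 332. Over all shared CpGs the mean difference was -12.6 points at 1 to 4 CpGs, -5.49 points at 5 to 9, -9.50 points at 10 to 19 and -1.10 points at 20 or more. CpG-poor positions were low in both knockout oocytes: at the 674 CpGs of the first class read in all 6, the wild-type levels were 25.1%, 20.1%, 22.1% and 22.7% and the knockout levels 9.84% and 12.5%.

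**Figure D3:**
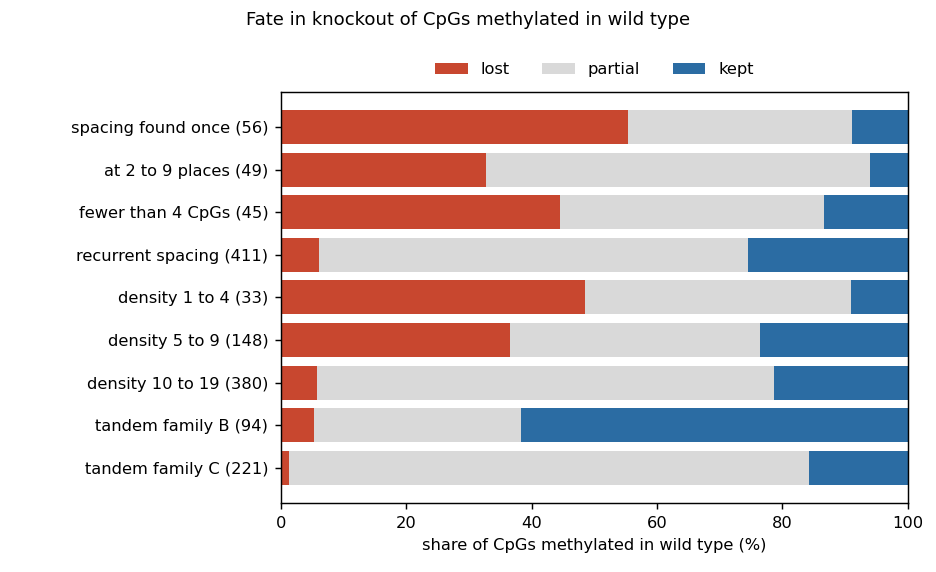
Share (horizontal axis, percent) of CpGs methylated at 80% or above in wild type that were lost, partial or kept in knockout, by spacing class, local CpG density and tandem family. The number of methylated CpGs stands in parentheses. Lost CpGs make up 31 of 56 at spacing found once and 25 of 411 at recurrent spacing.

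Lost CpGs stood alone or in short runs. Joined where neighbours were at most 200 bp apart, the 92 lost CpGs made 57 runs: 39 CpGs stood alone and 33 lay in 8 runs of 3 or more. The 119 kept CpGs made 88 runs, with 63 CpGs alone and 16 in 5 runs of 3 or more. Shared CpGs next to a lone lost CpG had means of 67.8% in wild type and 33.7% in knockout. A deficit of at least 50 points was found at 300 CpGs, 2.26% of those compared, in 173 runs, and a gain of that size at 60, or 0.452%. Runs of 3 or more CpGs with such a deficit held 6.94% of the summed deficit, and 2.93% without wild-type oocyte 3 and 4.03% without wild-type oocyte 4. They held 19.0% and 13.9% without knockout oocyte 1 or 2, over the wider sets of CpGs that this lets in.

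The longest runs are given with mm9 coordinates, and their values chose them. The longest lost run, chr14:75347228-75347317, held 7 CpGs whose spacing was found nowhere else. Wild-type oocytes 1 and 3 stood at 100% there and knockout oocytes 1 and 2 at 0%. The counts per CpG in the knockout oocytes were 5.00 and 30.6, and a count of 0 at that depth allows levels of up to 60% and 9.81%. A run of 5 CpGs at chr16:38117999-38118121 was at 100% in wild-type oocytes 2 and 3 and at 0% in both knockout oocytes. Of its 5 CpGs, 4 had recurrent spacing, found at up to 65 places. Secondary follicle knockout oocytes 3, 4 and 5, which played no part in the choice, had 1.09%, 0% and 0% there, and no secondary follicle wild-type oocyte was read. Next came 4 CpGs at chr17:34020616-34020634, at 100% in wild-type oocytes 3 and 4 and 0% in both knockout oocytes. At chr15:67333857-67333884, 3 CpGs were at 100% in wild-type oocytes 2 and 3 and at 0% and 2.46% in the knockout oocytes. Secondary follicle knockout oocytes 1, 3 and 5 differed among themselves at this run, with 98.8%, 33.3% and 0%, and both secondary follicle wild-type oocytes read there had 100%. At chr7:31640308-31640372, 3 CpGs stood at 100% in wild-type oocytes 1, 3 and 4 and at 0% in both knockout oocytes. Secondary follicle oocytes split by genotype there, with 66.7% to 100% in 4 wild-type oocytes and 0% in both knockout oocytes read.

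Kept runs were short and lay in repeats. The longest, chr12:40265714-40265734, held 4 CpGs with spacing found at 264 to 324 places. Its levels were 92.9%, 97.2%, 91.3% and 92.9% in wild-type oocytes 1 to 4, and knockout oocytes 1 and 2 had 100% and 91.5%. Runs of 3 CpGs at chr12:64453341-64453346, chr12:26719898-26719916 and chr12:31730746-31730764 had spacing found at 72 to 324 places, and knockout levels between 74.9% and 95.8%. The run at chr1:85336714-85336732 had spacing found at 9 to 22 places and knockout levels of 96.3% and 100%. The pair of gained CpGs at chr6:16378530-16378540 was at 0% in wild-type oocytes 2 and 3 and at 100% and 84.9% in the knockout oocytes, but 100% in the 1 secondary follicle wild-type oocyte read there and 50% and 99.02% in secondary follicle knockout oocytes 2 and 3. The other gained CpGs described were single: chr17:77700580, with 12.5% and 0% in wild-type oocytes 2 and 3 and 100% in both knockout oocytes, and chr2:139265481, with 0% in wild-type oocytes 3 and 4 and 100% and 82.1% in the knockout oocytes. Secondary follicle oocytes went the other way at both: the 1 wild-type oocyte read had 100% at each, while knockout oocytes 2 and 5 had 0% at the first and knockout oocyte 3 had 0% at the second. Close to the gained pair, chr6:16378565 was at 100% in wild-type oocytes 2 and 3 and at 0% in both knockout oocytes. Near the chr2 position, CpGs at chr2:139265392-139265396 had 100% in wild-type oocytes 3 and 4, and 0% and 50% in knockout oocytes 1 and 2. These neighbours went the opposite way. Near the chr17 position, chr17:77700561 was at 100% in wild-type oocytes 2 and 3 and at 96.9% and 100% in the knockout oocytes.

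Methylated CpGs were gathered in few places. Joined across gaps of up to 2000 bp, the 561 fell into 163 places, and 8 places with 10 or more held 195 of them. Of these 8, 7 lay in family C. The largest, chr16:27423427-27424958, held 71 methylated CpGs, of which 58 were partial, 13 kept and 0 lost. Wild-type oocytes stood at 86.3%, 88.0%, 90.2% and 86.7% there and knockout oocytes at 65.0% and 68.8%, from summed counts of 978 to 3598 per oocyte. At chr14:39355591-39356504, with 29 methylated CpGs, the levels were 82.5%, 84.8%, 90.1% and 86.5% against 68.9% and 64.0%. At chr14:29001972-29002474, with 23, they were 86.8%, 88.5%, 89.7% and 81.2% against 74.6% and 57.9%. The genotypes did not overlap at these 3 places, whose CpGs had been chosen for a wild-type mean of 80% or above, so the high wild-type side is set by that choice. Over all its CpGs family C was intermediate in wild type too, with 906 of 1135 between 20% and 80%. The places were chosen after their values were seen.

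Where partial CpGs are left out, lost and kept CpGs were seldom mixed at short distances. Of 110 pairs of lost or kept CpGs within 50 bp, 97.3% had the same fate, and of 57 pairs 51 to 200 bp apart 80.7%. CpGs this close can be read by the same reads and their PCR copies, so such pairs are not separate observations. All 43 pairs more than 500 and up to 2000 bp apart were both kept, but they came from 3 places of recurrent spacing, on chromosomes 14 and 16, so this share cannot be told apart from that of those arrays. Pairs more than 1 Mb (1000000 bp) apart on the same chromosome had the same fate in 64.1% of 1600 cases. Where both CpGs had recurrent spacing, as in the 43 pairs, this share was 85.2% of 938, with 788 pairs both kept and 11 both lost. With partial CpGs counted, most clusters were mixed: of 62 clusters with at least 3 methylated CpGs, 10 held lost and partial CpGs, 24 kept and partial and 6 both lost and kept, while 6 were wholly lost, 6 wholly kept and 10 wholly partial. Of the 62, 35 were all recurrent, and of these 0 were wholly lost and 5 wholly kept. Of 15 clusters without a recurrent CpG, 5 were wholly lost and 0 wholly kept.

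The 2 knockout oocytes were low at many of the same CpGs, both being set against the same wild-type values. Of 561 methylated CpGs, 141 were at 20% or below in knockout oocyte 1 and 114 in oocyte 2. Both were low at 80 of them, which is 56.7% of the first list and 70.2% of the second, while 25.1% and 20.3% of all methylated CpGs were low in oocytes 1 and 2. At spacing found once, 30 of the 40 CpGs low in oocyte 1 were low in oocyte 2, where 62.5% of all such methylated CpGs were low, and 30 of the 35 low in oocyte 2 were low in oocyte 1, where 71.4% were. At recurrent spacing the counts were 18 of 46, where 37 of all 411 were low, and 18 of 37, where 46 of the 411 were. The overlap stood further above the share of low CpGs at recurrent spacing than at spacing found once. With 62.5% and 71.4% low to begin with, the latter had little room to rise, so the spacing classes cannot be ranked by this. At 80% or above in both were 79 CpGs, which is 39.3% of those high in oocyte 1 and 47.6% of those high in oocyte 2, while 35.8% and 29.6% of all methylated CpGs were high in oocytes 1 and 2.

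Within the repeated unit, CpGs of the same family differed in their deficit. In family B the first 3 CpGs of the motif had wild-type means of 58.8%, 49.1% and 46.8% and knockout means of 49.5%, 40.5% and 40.1%, so the knockout kept 0.84, 0.82 and 0.86 of the wild-type level. The CpGs 56 and 68 bp from the first had lower ratios of 0.62 and 0.59, with wild-type means of 28.6% and 29.6% beside knockout means of 17.7% and 17.4%. At 208 bp the ratio was 0.87. With copies most often 208 bp apart, a CpG there is often the first CpG of the next copy. Such a CpG is counted at both distances, so the ratio is no separate sign that the order repeats. At the first CpG of the motif the oocytes overlapped, with 51.2%, 64.9%, 65.0% and 52.2% in wild type against 53.2% and 44.5% in knockout over 272 CpGs. At 68 bp they did not, with 28.2%, 33.7%, 25.5% and 26.6% against 16.0% and 17.1% over 218 CpGs. Of the methylated CpGs at the first 3 positions of family B, 26 of 39, 12 of 18 and 9 of 14 were kept. At 56 bp no CpG was methylated, so none could be kept, and these counts do not bear on the order of the ratios.

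In family C the difference varied over the 4 CpGs of the motif from -11.0 to -21.3 points, and in family B from -6.74 to -10.9 points, while the ratio of knockout to wild type ran from 0.67 to 0.82 in family C and from 0.62 to 0.86 in family B. The family C CpGs 4 and 28 bp from the first had differences of -19.9 and -21.3 points, from 60.7% to 40.8% and from 70.4% to 49.1%. The first CpG and the one 13 bp on had differences of -11.0 and -11.4 points. One unit further, at 206, 210, 219 and 234 bp, the differences were -10.9, -19.6, -9.94 and -20.5 points. With copies most often 206 bp apart, many of these CpGs are those of the next motif counted again, so the likeness is no separate observation. The first position had 16 kept CpGs of 26 methylated, the position at 4 bp 0 of 21, that at 13 bp 3 of 24 and that at 28 bp 5 of 31. The counts kept thus did not follow the order of the differences. In family A the differences lay between -4.88 and 6.07 points over positions from -50 to 222 bp, with both signs.

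**Figure D4:**
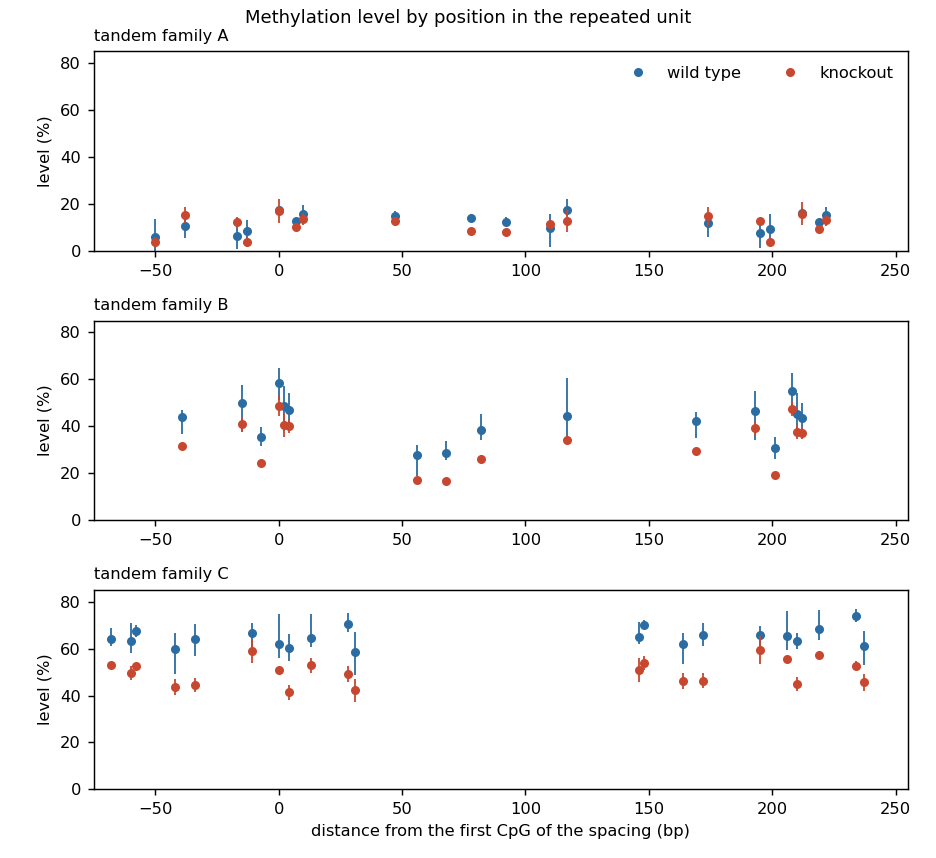
Methylation level (vertical axes, percent) by distance from the first CpG of the motif (horizontal axis, bp) in tandem families A, B and C, over CpGs read in all 6 oocytes. Points are group means and vertical lines the range over 4 wild-type or 2 knockout oocytes. In family B the genotypes overlap at the first CpG and are apart at 68 bp. Levels near 208 bp resemble those near 0, as many of the same CpGs are counted at both distances.

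Secondary follicle oocytes, which had no part in setting the classes, were scored at the same classes of CpGs. Each was averaged over those it had read, so the CpGs differ between oocytes and between genotypes. The lost run at chr16:38117999-38118121, for example, counts in knockout oocytes 3, 4 and 5 and in no wild-type oocyte. At lost CpGs the 7 wild-type oocytes ranged from 22.5% to 81.4% with a median of 58.3%, and the 5 knockout oocytes stood at 52.8%, 10.3%, 26.5%, 19.3% and 11.7%. The group means of 54.1% ± 19.1 (SD, n = 7) and 24.1% ± 17.3 (SD, n = 5) differed by -30.0 points, and the groups overlapped. Between 4 and 49 lost CpGs were read per oocyte, and the 2 lowest wild-type values rest on 4 CpGs each. Without knockout oocyte 1, the highest of its group, the knockout mean was 16.9% ± 7.49 (SD, n = 4). At kept CpGs the means were 80.2% ± 2.54 (SD, n = 7) and 80.6% ± 5.91 (SD, n = 5), and at partial CpGs 72.6% ± 4.87 (SD, n = 7) and 61.1% ± 10.7 (SD, n = 5). The genotype difference at lost CpGs minus that at kept CpGs was -30.5 points, and the part of unlike CpGs in it was not tested. Family C, where the early antral genotypes differed by -15.0 points, had 51.7% ± 7.62 (SD, n = 7) and 48.9% ± 12.7 (SD, n = 5) in secondary follicle oocytes, with overlapping ranges.

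**Figure D5:**
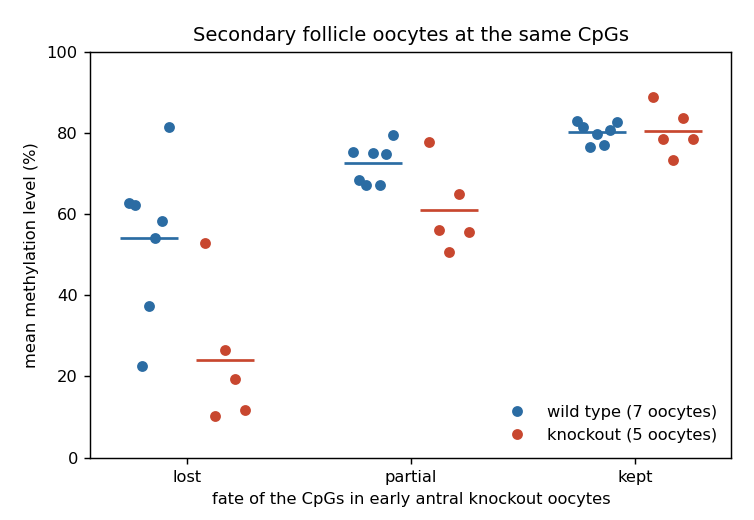
Mean methylation level (vertical axis, percent) of each secondary follicle oocyte at CpGs lost, partial or kept in early antral knockout oocytes (horizontal axis). Points are oocytes and lines are group means. Knockout means are 24.1%, 61.1% and 80.6%, and wild-type means 54.1%, 72.6% and 80.2%.

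By chromosome the smallest difference was -1.44 points, on chromosome 6, and the largest -13.3 points, on chromosome 4, and the knockout mean was below the wild-type mean on all 19 autosomes. These means are over different CpGs in different oocytes. Over CpGs read in all 6 oocytes the difference was 1.79 points on chromosome 6 (164 CpGs, from 2.63% to 4.41%) and 20.3 points on chromosome 7 (14 CpGs, from 8.33% to 28.6%), and it was negative on the other autosomes. The share kept was highest on chromosome 12, where 30 of 42 methylated CpGs were kept and 1 was lost. Chromosomes 14 and 16, with the family C arrays, held 139 and 97 of the 561 methylated CpGs, of which 27 and 20 were kept. On chromosome 7, 10 of 23 were lost and 0 kept.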

How the data were processed

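DNA of each oocyte was cut with MspI, converted with bisulfite and enriched in 2 rounds of PCR, and fragments of 200 to 500 bp were selected, per the labels' protocols. Alignment was to mm9 with BSMAP 2.89, as the submitters' processing notes list them. The deposited tables, per the file headers, give for each CpG a count of reads and a count of methylated reads, in total and by strand. The methylation ratio deposited beside them is a fraction, methylated over total count, and it was recomputed from the counts. No filter applied before deposition is stated in the labels or headers. PCR copies are not marked, and a read is counted at each CpG it spans, so limits set by a count of 0 (3 counts of the total) cover counting error only.

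The level of a CpG was averaged over the oocytes of a genotype that had at least 5 reads there, and then over CpGs. Positions are 1-based. A lost or kept run joined neighbours at most 200 bp apart. The 5 longest lost, 5 longest kept and 3 longest gained runs are named, ties going to the larger counts, and chromosomes 8 and 18 are not named. Tandem motifs were searched in both directions. The CpGs, classes and lists were chosen with earlier results of these data known, and the spacing classes and families after these values were seen. Oocytes that share a replicate number were checked for shared deviations: the correlations were -0.0644 for number 1 and -0.0535 for number 2 over 8056 CpGs. With 2 knockout oocytes, deviations from their mean mirror each other, so each correlation has an equal one of opposite sign. The check therefore cannot tell whether oocytes share an animal or a batch. Simulated data were made for lost, kept and gained CpGs, the mean difference, runs of lost CpGs, recurrent spacing and the family A motif. The other classes and measures were not simulated. Computations ran in Python 3.11.15 with pandas 2.3.3, numpy 2.4.6 and scipy 1.17.1, and plots in matplotlib 3.10.9. Genes, promoters and sequences were not analysed here.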

Additional observations from a re-analysis of the deposited data

Results flagged for a closer look

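Wild-type oocyte 4 stood apart from the other 3 early antral wild-type oocytes in 3 of 29 groups of values examined. Chance alone would set apart about 1 in 20 if the groups were separate, but they share CpGs, so no excess can be read from this. The level of wild-type oocyte 4 at CpGs with a density of 5 to 9, read in all 6 oocytes, was 20.3% while the others lay between 25.6% and 26.2%. At CpGs methylated in the other wild-type oocytes its level was 75.5%, with the others between 81.8% and 83.0%. At such CpGs of recurrent spacing it was 75.2%, with the others between 81.9% and 82.5%. These recurrent CpGs were 375 of the 442 CpGs scored in the oocyte for the value before. In each case the oocyte stayed above both knockout oocytes, and leaving it out kept the sign of the genotype difference.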

How the results depend on the processing

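The mean genotype difference of -8.10 points kept its sign and moved by less than the SD over wild-type oocytes under all 17 alternatives run, and lay between -9.96 and -7.05 points when single oocytes were left out. The shares of lost and kept CpGs were less stable. Leaving out a knockout oocyte also let in CpGs that only the other knockout oocyte had read, so those values are over wider sets. As ranges over left-out oocytes, the share lost was 8.13% to 38.4%, the share kept 20.9% to 32.4%, the CpG-poor minus CpG-dense difference in the share lost 23.2 to 63.4 points, the single minus recurrent difference 28.3 to 59.8 points, the same-fate share of neighbours at more than 500 and up to 2000 bp 86.0% to 100%, the share of the deficit in runs 2.93% to 19.0%, the agreement of the 2 knockout oocytes 47.9% to 62.2%, the difference at CpGs methylated in other wild-type oocytes -18.7 to -14.0 points, and the lost minus kept difference in secondary follicle oocytes -35.5 to -26.3 points. In tandem family A the difference was 0.605 points without knockout oocyte 1 and -4.19 points without knockout oocyte 2, with the others in between.

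With at least 10 reads, the share lost was 6.83%, the density difference 25.6 points, the single minus recurrent difference 20.9 points and the share of the deficit in runs 1.81%. With at least 3 reads, the share lost was 20.5%, the density difference 56.2 points and the share in runs 9.55%. At CpGs read in all 6 oocytes, 1.82% were lost and 27.3% kept, the single minus recurrent difference was 10 points, the share in runs 1.10%, the agreement of the knockout oocytes 40% and the secondary follicle value -82.5 points, which rests on 5 lost CpGs. Thinned to 5 reads, 20.3% were lost and 27.0% kept, with a density difference of 32.7 and a single minus recurrent difference of 40.9 points. Adding the X chromosome gave a density difference of 44.1 points. With bounds of 90% and 10%, 26.1% were lost and 13.8% kept, the density difference was 40.2 points, the single minus recurrent difference 54.5 points and the difference at CpGs methylated in other oocytes -20.6 points. With 70% and 30%, 29.3% were kept, and the density and single minus recurrent differences were 47.1 and 39.4 points. Classes set by secondary follicle wild-type oocytes gave -20.7 points. Density within 250 bp gave 17.5 points, and runs at a deficit of 30 points held 14.6% of the deficit. With 1 value per cluster, 27.8% were lost and 3.70% kept.

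The next alternatives were added after seeing the data. Without recurrent spacing, 44.7% were lost and 9.33% kept, the difference at CpGs methylated in other oocytes was -34.7 points, the density difference 27.1 points and the share in runs 15.2%, and no pair in that range of distances was left. With recurrent spacing alone, 6.08% were lost, the share in runs was 2.84%, the agreement 43.9%, and the density difference turned to -3.31 points, because the CpG-poor class then held 1 methylated CpG, which was not lost. Without chromosomes 10 to 14, 21.2% were lost and 15.5% kept, the difference at CpGs methylated in other oocytes was -22.6 points, the density difference 32.3 points, the single minus recurrent difference 42.3 points and the share in runs 15.2%. Spacing compared within 100 bp gave a single minus recurrent difference of 26.2 points. Apart from fewer CpGs or oocytes, the cause of these shifts was not tested. Taking oocytes 1 and 2 of each genotype as pairs, as a replicate block with no test, gave a mean difference of -9.85 points, a difference of -18.4 points at CpGs methylated in other oocytes and a share lost of 21.9%. At CpGs read in all 6 oocytes the density difference could not be computed. Depth limits single CpGs, since at 5 reads a level can move only in coarse steps.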
